A study of Mus musculus with 2 samples.

Results

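The 10 genes described here code for small proteins that mark cartilage: Snorc, Cnmd, Ucma, Cytl1, Scrg1, Clec3a, Mia, Rflna, Rflnb and Panx3. They were found as the array spots whose transcript identifier belongs to one of these genes under its current or an older symbol (Lect1 for Cnmd, Fam101a and Fam101b for Rflna and Rflnb), which gave 11 spots for 10 of 20657 genes named on the array. RNA came from ATDC5, a mouse chondrogenic cell line, in 2 stable derivatives that switch on a transgene under doxycycline: the control makes GFP and the other line makes A-CEBP. Both lines received doxycycline at 2 µg/mL for 2 days and then insulin, transferrin and selenite (ITS), the supplement that drives ATDC5 cells into cartilage, for 3 weeks. A-CEBP acts as a dominant negative, binding C/EBP transcription factors through their zipper so that they cannot hold DNA, and the comparison asked how expression in differentiating chondrocytes changed under C/EBP blockade. Each group held 1 culture and 1 array, so the transgene, the cell line and the culture cannot be told apart as sources of a difference. A difference between the lines in how far they had matured cannot be told apart from C/EBP blockade either. The labels do not say whether each line was 1 clone or a pool, and no probe was named for either transgene, so their expression was not checked.

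Cartilage cells secrete a matrix of collagen and proteoglycan, and beside these large molecules they make a set of small proteins that reach the matrix or stay at the cell surface. Some of these hold back vessels or mineral, as chondromodulin and UCMA do, while others form channels, as pannexin 3 does in maturing chondrocytes and osteoblasts. Chondrocytes in culture switch many of these genes on under SOX9, the master regulator of the lineage, and C/EBP beta is known in cartilage for acting at promoters of both matrix and protease genes. Mia, described in cartilage as CD-RAP, has been reported to be repressed through C/EBP factors under interleukin-1. The label of secreted and membrane proteins fits 8 of the 10 genes. The refilins, encoded by Rflna and Rflnb, are instead proteins of the cell interior that bind filamin and bundle actin.

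The arrays came from 1 slide and 1 scan. The GFP array had 54.6% of its 59305 non-control spots well above background and the A-CEBP array 58.0%, and no spot was saturated. All 11 member spots were well above background on both arrays and none was marked as an outlier. Levels are the log2 processed signal minus the array's 75th percentile, so that 0 stands for that percentile (868 and 902 intensity units for GFP and A-CEBP), and a difference is A-CEBP minus GFP. Levels of different probes cannot be set against each other. Errors of single values are those of the scanner's error model, which covers measurement of 1 spot and not the spread between cultures. For the 11 member probes the error of the difference was nearly constant, from 0.204 to 0.233. A difference counted in scanner errors therefore mostly restates its size. Over 3601 genes with several probes, the difference varied between probes of a gene with an SD of 0.19, and over 291 probes with several spots it varied with an SD of 0.11. With 1 array a group no test between groups was possible, and a fixed rule of 2-fold was used to describe size.

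A RefSeq table of promoters (build GRCm38.p6) held 5 of the 10 genes, namely Cnmd, Ucma, Cytl1, Mia and Rflnb. The 250 bases before the start of transcription are shown for 4 of them, 5′ to 3′ on the gene's own strand. The window left out is that of Cytl1, whose log2 difference between the arrays was 0.06. All 4 printed genes were higher with A-CEBP, but so were all 10 members, so this does not set the printed windows apart. The window of Rflnb alone was unlike the others in composition. Capitals mark CpG dinucleotides. The windows lie at chr14:79662184-79662433 for Cnmd (minus strand), chr2:4975872-4976121 for Ucma (plus strand), chr7:27181150-27181399 for Mia (minus strand) and chr11:76027783-76028032 for Rflnb (minus strand).
Cnmd: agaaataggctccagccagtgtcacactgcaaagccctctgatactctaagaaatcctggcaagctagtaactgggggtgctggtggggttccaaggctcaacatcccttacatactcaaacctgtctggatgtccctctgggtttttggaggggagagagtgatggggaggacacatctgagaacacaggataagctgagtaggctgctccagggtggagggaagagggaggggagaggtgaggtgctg
Ucma: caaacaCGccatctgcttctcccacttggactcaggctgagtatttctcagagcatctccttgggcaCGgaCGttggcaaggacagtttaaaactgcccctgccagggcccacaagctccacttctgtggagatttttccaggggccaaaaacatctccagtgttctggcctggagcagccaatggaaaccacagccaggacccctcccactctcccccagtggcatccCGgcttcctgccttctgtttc
Mia: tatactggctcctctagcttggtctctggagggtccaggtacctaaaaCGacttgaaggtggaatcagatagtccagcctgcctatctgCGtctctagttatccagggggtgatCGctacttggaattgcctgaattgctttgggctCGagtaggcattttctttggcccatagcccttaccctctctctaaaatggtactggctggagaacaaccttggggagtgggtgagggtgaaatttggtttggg
Rflnb: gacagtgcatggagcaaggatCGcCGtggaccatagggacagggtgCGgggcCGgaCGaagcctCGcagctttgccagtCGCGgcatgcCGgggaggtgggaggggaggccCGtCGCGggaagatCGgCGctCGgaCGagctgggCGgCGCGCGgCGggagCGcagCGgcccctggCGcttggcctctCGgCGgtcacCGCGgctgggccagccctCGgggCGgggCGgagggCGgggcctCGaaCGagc

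The Rflnb window was the only one of the 5 that was rich in CpG, with 34 of them and 76.0% G and C. The other 4 held 0 to 4 CpG each, namely 0 in Cnmd and 4 in each of Ucma, Cytl1 and Mia, with 50.4% to 56.4% G and C, where the median over all 32851 promoters of the table was 6 CpG and 52.4%. The letters of 8 motifs were searched on both strands. The C/EBP letters TTGCNNAA, and the stricter TTGCGCAA that they include, were in none of the 5 windows, Mia among them, and in 9.56% and 0.164% of all promoters. The SOX letters AACAAT and AACAAAG were also in none (9.42% and 5.03% of all promoters), nor were the E-box CACGTG (6.02%), the HIF core ACGTG that overlaps it (16.6%) and TATAAA (12.4%). The single match was to the RUNX letters TGTGGT, present in 14.0% of all promoters, on the minus strand of Ucma 62 bases before the start. It is shown in capitals, as its complement, in this stretch of the window printed above.
Ucma, 30 bases: cagccaatggaaACCACAgccaggacccct
A match to these letters is a description of the window and does not show that a factor binds there. The absence of a match, as for the C/EBP letters in Mia, covers only the window searched. It does not show that the gene lacks a site elsewhere. So few windows, set against these shares of all promoters, cannot show that any of the letters are rarer in the member genes.

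All 10 genes had a higher value with A-CEBP than with GFP, and 4 were at least 2-fold higher: Rflna, Snorc, Clec3a and Cnmd. Across the 13860 genes measured on both arrays, 1.25 percent were at least 2-fold higher and 1.71 percent at least 2-fold lower, against 4 and 0 of the 10 genes here. At a looser size of 1.5-fold, 6 of the 10 were higher, where 4.68 percent of all genes were; Panx3 and Rflnb also passed it with no scaling, median scaling or spike-in scaling, which gave 8. A value above 0 is by itself no mark of the set, since 58.9 percent of all genes had one. The median difference over the 10 genes was 0.72 (1.65-fold) and over all genes 0.04, with quartiles of -0.10 and 0.19. Rflna and Snorc were the only genes whose difference stayed past 2-fold after taking off 1 scanner error. The set was drawn up with results of these arrays known, so these shares are descriptions and not tests.

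**Figure D1:**
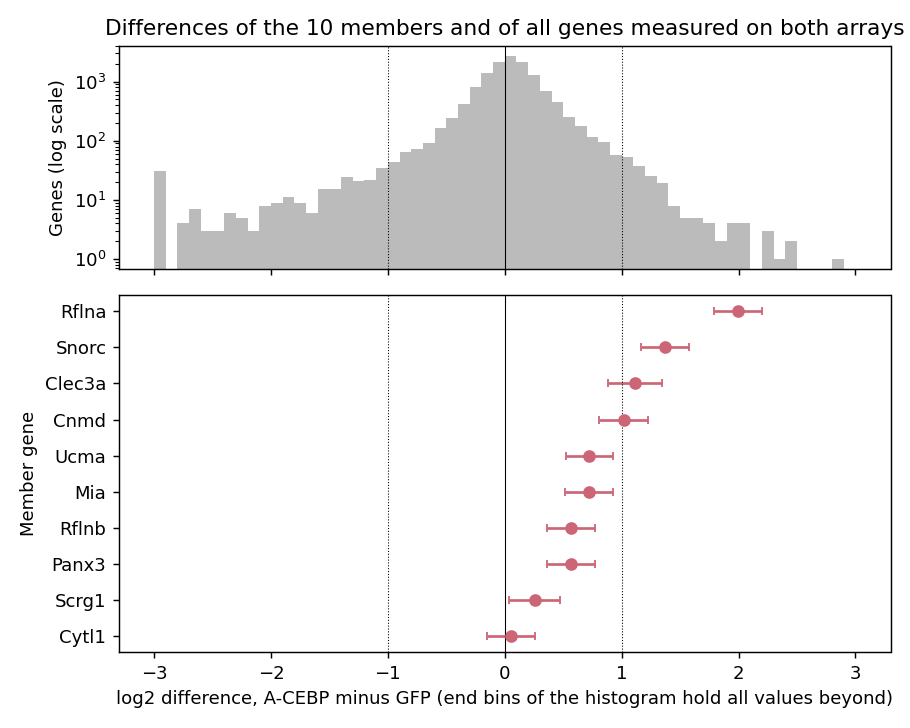
The lower panel plots the log2 difference (A-CEBP minus GFP) of each of the 10 genes, with bars of 1 scanner error of the difference, and the upper panel the same difference for all 13860 genes measured on both arrays on a log count axis. Dotted lines mark 2-fold; all 10 points lie to the right of 0, from Cytl1 at 0.06 to Rflna at 2.00.

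Of the 3 genes for membrane proteins, Snorc and Cnmd were at least 2-fold higher and Panx3 was within 2-fold. Snorc encodes a small transmembrane proteoglycan that carries chondroitin sulfate and is made almost only in cartilage. Its spot read 26923 intensity units with GFP and 72357 with A-CEBP, levels of 4.95 and 6.33. The difference was 1.37 ± 0.20 (scanner error), or 2.59-fold, and 43 of the 13860 genes had a larger one. In raw brightness the spot stood 456 times above its own local background on the GFP array and 1516 times on the A-CEBP array, so background had little share in either value.

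Cnmd encodes chondromodulin, which is made as a membrane precursor and cut to release a glycoprotein that keeps vessels out of cartilage. Its signal was 193 units with GFP and 405 with A-CEBP, and the levels were -2.17 and -1.16. The difference of 1.02 ± 0.21 (2.02-fold) lay just past the rule, and 159 genes had a larger one. The raw spot was 5.22 times its local background with GFP and 11.6 times with A-CEBP, so this pair of readings rested more on the background subtraction than those of Snorc. With normexp background correction the difference was 0.86, under 2-fold.

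Panx3 encodes a channel protein that lets ATP and calcium pass in maturing chondrocytes and osteoblasts. Its signal was 5811 units with GFP and 8927 with A-CEBP, at levels of 2.74 and 3.31. The difference was 0.56 ± 0.20, or 1.48-fold, and 705 genes had a larger one. The value was higher with A-CEBP by more than 2 scanner errors and lay just under 1.5-fold; it passed that size with no scaling (0.62), median scaling (0.59) and spike-in scaling (0.76).

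**Figure D2:**
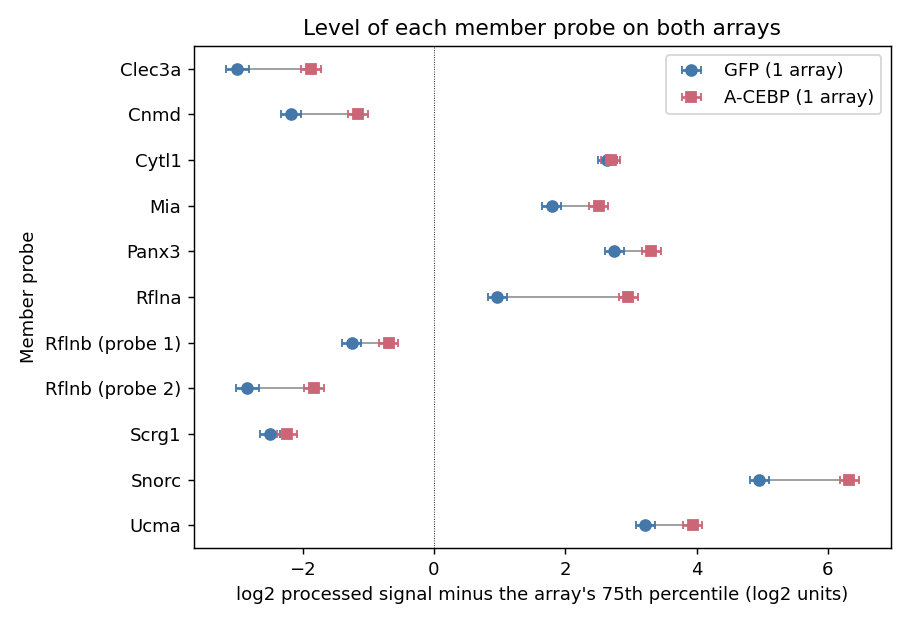
Each row is 1 member probe, with its level (log2 processed signal minus the array's 75th percentile) on the GFP array as a circle and on the A-CEBP array as a square, each from 1 array and with a bar of 1 scanner error. The square lies to the right of the circle in all 11 rows, with the widest gap for Rflna (0.96 and 2.96) and overlapping bars for Cytl1 and Scrg1; rows are not comparable with each other in level.

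Of the 5 genes for secreted proteins, Clec3a alone was at least 2-fold higher, Ucma and Mia were between 1.5-fold and 2-fold higher, and Scrg1 and Cytl1 differed least of all 10 genes. Clec3a encodes a C-type lectin of the cartilage matrix related to tetranectin. Its signal was 109 units with GFP and 246 with A-CEBP, at levels of -2.99 and -1.88, and the difference was 1.12 ± 0.23 (2.17-fold). The raw spot was 4.10 times its own local background with GFP and 6.72 times with A-CEBP. With normexp background correction its difference was 0.63, under 2-fold.

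Ucma encodes a vitamin K-dependent protein of the upper growth plate, rich in carboxylated glutamate, that binds calcium and is known to restrain mineral. It read 8060 units with GFP and 13830 with A-CEBP, levels of 3.21 and 3.94. The difference was 0.72 ± 0.20, or 1.65-fold. Mia encodes a small secreted protein with an SH3-like fold that binds fibronectin. It read 3004 units with GFP and 5135 with A-CEBP, levels of 1.79 and 2.51, and its difference was 0.72 ± 0.20 (1.65-fold). Both genes were thus higher by more than 3 scanner errors, with 411 genes past Ucma and 418 past Mia in size.

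Cytl1 encodes a small cytokine-like protein of cartilage. Its signal was 5408 units with GFP and 5842 with A-CEBP, levels of 2.64 and 2.69. The difference of 0.06 ± 0.20 lay within 1 scanner error of 0 and close to the median of all genes. Scrg1, named for its response to scrapie, encodes a cysteine-rich secreted peptide found in brain and in cartilage. It read 154 units with GFP and 191 with A-CEBP, levels of -2.50 and -2.24, with a difference of 0.26 ± 0.22 that was hardly more than its error. By scanner error alone, neither gene was thus clearly set apart from no difference. The spread between cultures was not measured for these or any other member.

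The refilin genes gave the largest member difference and one of the smaller ones. Refilins bind filamin and help to bundle actin, and mice that lack both have skeletal malformations. Rflna read 1695 units with GFP and 7020 with A-CEBP, levels of 0.96 and 2.96. Its difference of 2.00 ± 0.20 was 3.99-fold and was the 12th largest of 13860 genes. The raw spot was 37.3 times its local background with GFP and 187 times with A-CEBP.

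Rflnb was the only member with 2 probes, and they disagreed on the size rule. The brighter probe, which stands for the gene, read 364 units with GFP and 560 with A-CEBP, a difference of 0.57 ± 0.21 (1.48-fold). The other probe read 121 units with GFP and 254 with A-CEBP, a difference of 1.01 ± 0.23 (2.02-fold). The probes thus had the same direction but were 0.44 apart in log2 difference. The mean of both was 0.79, still under 2-fold.

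Structural relatives of these proteins are all named here whatever their value, and those measured differed by -0.96 to 0.92. Like the other lists, theirs was written with earlier results of these data known. Of 10 relatives 9 were measured on both arrays, none was 2-fold apart and their median difference was 0.22. Over all genes 2.96% were 2-fold apart, so none of 9 does not set this list apart. With the authors' deposited values Otor passed the rule, at -1.01, and with spike-in scaling Panx2, at 1.12. Tenomodulin (Tnmd), the sister protein of chondromodulin in tendon, was not well above background on either array, at 8.21 units with GFP and 6.09 with A-CEBP. The more distant proteins that share the BRICHOS fold with chondromodulin differed by 0.67 for Itm2a, 0.22 for Itm2b and 0.26 for Itm2c, against 1.02 for Cnmd.

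Tetranectin (Clec3b), the relative of Clec3a, read 61.5 units with GFP and 61.0 with A-CEBP and differed by -0.07 (0.13 with spike-in scaling), against 1.12 for Clec3a. Otor, the sister gene of Mia that is known from the inner ear and cartilage, was lower with A-CEBP, at 187 and 99.8 units and a difference of -0.96 (1.94-fold lower), whereas Mia itself was at 0.72. The larger MIA-family genes Mia2 and Mia3, which act in export of collagen from the endoplasmic reticulum, differed by 0.08 and 0.25, the other probe of Mia3 giving -0.04. Among pannexins Panx1 differed by -0.02, a value above 0 under 4 of 13 other ways of processing the spots, and Panx2 by 0.92, with another probe of Panx2 at 0.36, beside 0.56 for Panx3. The measured relatives of Cnmd, Clec3a and Mia lay below the member itself, and those of Panx3 lay on either side of it. Whether any member differs from its relatives beyond the spread between cultures was not testable here.

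Among genes listed as partners of the members, those measured on both arrays were not 2-fold apart. Binding to a member is named here only for the filamins, Bst1 and Ccr2, and not for Smad3 or Gja1. Of 6 such partners 4 were measured on both arrays, with a median of 0.12 that turned to -0.14 without the filter on dim probes. Since 2.96% of all genes were 2-fold apart, none of 4 does not show that partners were unaffected. The filamin genes Flna and Flnc, whose products bind refilins, differed by 0.03 and 0.20, while Rflna was at 2.00; Flna turned below 0 with quantile normalization, cyclic loess or the authors' deposited values, the lowest at -0.04. Smad3, a TGF-beta mediator, differed by 0.62, with its other probe at 0.69. Gja1, encoding the gap junction protein connexin 43, was lower at -0.72 (1306 units with GFP and 826 with A-CEBP). The reported receptors Bst1 for SCRG1 and Ccr2 for CYTL1 were not well above background on either array.

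Transcription factors of cartilage and bone and the C/EBP genes themselves differed in both directions. Sox9 read 2814 units with GFP and 4454 with A-CEBP, a difference of 0.61, while its partners Sox5 and Sox6 differed by -0.06 and 0.17; with spike-in scaling Sox5 was at 0.14. Runx2 differed by 0.37 (0.05 for its other probe), Runx3 by 0.74 (0.46) and Sp7, the osteoblast factor downstream of RUNX2, by 0.89. Among C/EBP genes Cebpd read 69012 units with GFP and 19399 with A-CEBP, a difference of -1.89, Cebpb was at -0.94, and Cebpa and Cebpg differed by 0.23 and -0.13, the last turning to 0.07 with spike-in scaling. With 1 gene of 10 at least 2-fold lower and none higher, the median of these regulators was 0.20. With spike-in scaling Sp7 was at 1.09, past 2-fold, and the median was 0.40.

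Most genes of a cartilage matrix list outside the set were also higher with A-CEBP. The list is not of matrix proteins alone, since it also holds the receptor gene Fgfr3 and sulfation genes such as Papss2. Of 25 such genes 21 gave a level on each array and 18 lay above 0; 5 were higher by 2-fold or more, 1 was lower by that size, and the median was 0.51 beside 0.72 for the 10 genes. The count higher was 3 with cyclic loess or the authors' deposited values, and with normexp background none was 2-fold lower (Prg4 at -0.76). The largest were the link protein gene Hapln1 at 1.42, the aggrecan gene Acan at 1.30, the receptor gene Fgfr3 at 1.16 (0.73 for its other probe) and Papss2, which supplies sulfate for proteoglycans, at 1.03 (0.98 in the authors' deposited table). Col2a1, the main cartilage collagen, differed by 0.43. Prg4, encoding the joint lubricant lubricin, was lower at -1.53, with a dim reading of 52.3 units in the A-CEBP sample against 146 with GFP. Among 14 genes of hypertrophic chondrocytes, the mature cells in which Panx3 is high, 3 were at least 2-fold higher and 1 lower, with a median of 0.62. Col10a1, the collagen of these cells, differed by 0.97, Ihh by 1.55, Smpd3 by 1.49, Dmp1 by 1.31 and the collagenase gene Mmp13 by -1.08.

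**Figure D3:**
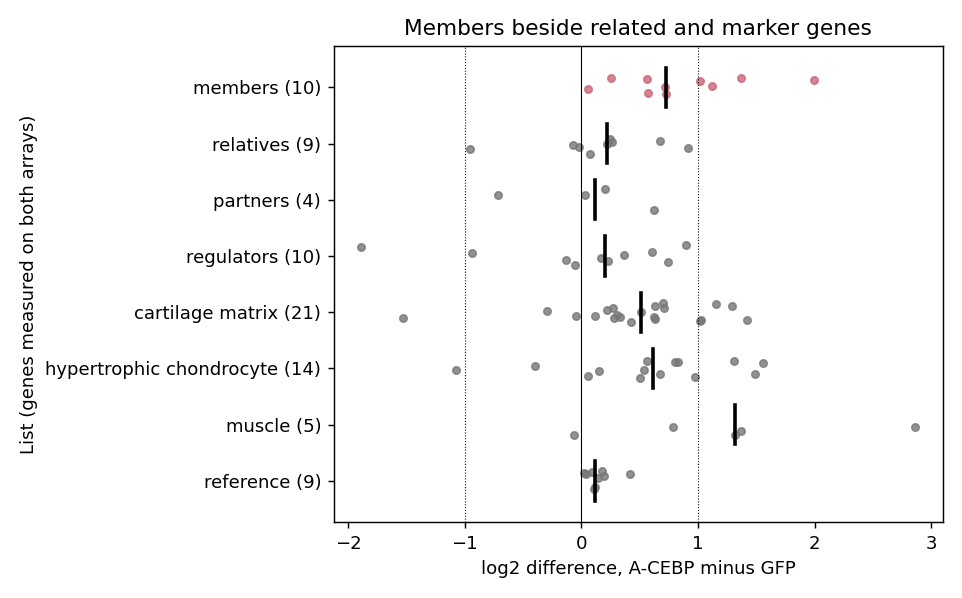
Each point is the log2 difference (A-CEBP minus GFP) of 1 gene measured on both arrays, by list, with the number of genes in brackets and a bar at the list's median; dotted lines mark 2-fold. The 10 members, in red, have their median at 0.72, and the 5 muscle genes have a higher one, at 1.31. The 14 hypertrophic chondrocyte genes have theirs at 0.62, the 21 genes of the cartilage matrix list at 0.51, the relatives at 0.22 and the 9 reference genes at 0.12.

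Markers of the labelled cell type were present: of 7 chondrocyte markers Col2a1, Acan, Sox9, Col9a1, Col11a2 and Hapln1 were well above background on both arrays, and Matn3 on neither (8.77 units with GFP, 7.60 with A-CEBP). Some genes known from muscle were higher with A-CEBP too. Of 8 muscle markers 5 were measured on both arrays and 3 were at least 2-fold higher, where 1.25% of all genes were. These were Mb at 2.86, Tnni2 at 1.37 and Tnni1 at 1.31. Acta1 was at 0.79, and Des, at -0.06, turned above 0 with spike-in scaling or outlier-marked spots kept. The median of the 5 was 1.31, above the 0.72 of the members. The defining factors Myod1 and Myog and the kinase gene Ckm were not well above background on either array. Mb was dim with GFP, at 54.1 units, and its lowest difference under the other ways of processing was 2.06. Tnni1 was at 0.98 at its lowest, under 2-fold. The summed signal of the 8 muscle markers was 7411 units with GFP and 19573 with A-CEBP, of which the Tnni2 probe alone gave 6762 and 18103, so the sum mostly follows that probe. Their part in the members' differences was not tested. The 9 reference genes were within 2-fold, with a median of 0.12 and a largest value of 0.42 for Gapdh, whose 7 probes ranged from that value to 0.85 (mean 0.69); Rplp0 and Sdha turned below 0 with quantile normalization, cyclic loess or the authors' deposited values. In a whole culture, more cells that make a cartilage gene and more of its RNA in each such cell cannot be told apart.

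The direction of all 10 genes held under each of 13 alternatives in scaling, background correction, filtering and choice of probe, but the size rule did not hold for all. These alternatives are not independent checks, since several shift every gene by 1 constant or leave all or most members unchanged. Rflna and Snorc stayed at least 2-fold higher under all 13, from 1.93 to 2.19 and from 1.30 to 1.57. Clec3a ranged from 0.63 to 1.32 and was past 2-fold in 12, and Cnmd ranged from 0.86 to 1.22 and was past it in 9. Ucma and Mia never reached it, with highest values of 0.92 each under scaling on spike-in spots. Cytl1 lay between 0.01 and 0.26, so its direction is not settled beyond its scanner error. With scaling on spike-in spots the median of all genes was 0.24 in place of 0.04, a constant shift of every gene.

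**Figure D4:**
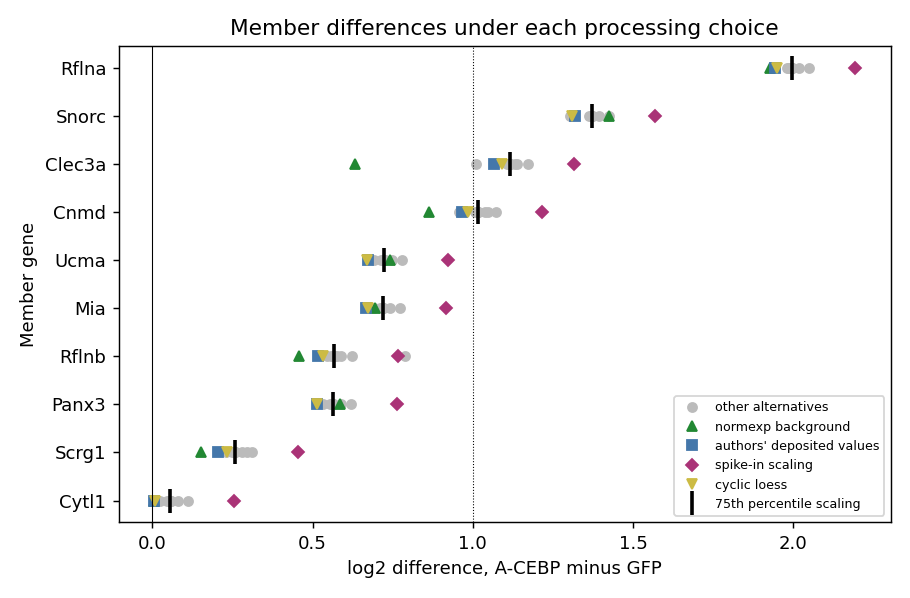
Each row is 1 member gene and each mark its log2 difference (A-CEBP minus GFP) under 1 processing choice; the black bar is the 75th percentile scaling used in the text, the dotted line marks 2-fold. Rflna and Snorc stay right of the line under every choice, while normexp background (green triangle) places Clec3a at 0.63 and Cnmd at 0.86.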

How the data were processed

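Cy3-labelled cRNA from 0.1 µg total RNA of each sample was put on Agilent mouse arrays of 1 colour, per the labels' protocols. What the authors deposited is linear intensity for each spot, from which Agilent Feature Extraction 10.10.1.1 had removed background and spatial trend, per the file headers and the submitters' processing notes; the array design is annotated on mm9. The authors' deposited value table holds the same intensity times 1 constant for each array (1.24 for GFP, 1.15 for A-CEBP; column medians 70.9 and 67.4); its scale is linear and not centred, and why those constants were taken is not stated in the labels or headers.

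Control spots and 293 outlier-marked spots were left out, log2 was taken and each array's 75th percentile subtracted. Replicate spots were averaged. A probe was well above background when over 50% of its spots were so marked, and a gene was represented by its brightest probe that passed on both arrays. Probes were named by matching transcript accessions to a RefSeq table (GRCm38.p6; 27229 of 55671 probes, 20657 genes), which was used for names only. Normexp (offset 50, on the median spot signal, since the files hold no mean), quantile and cyclic loess came from limma 3.58.1, and the rest from Python 3.11.15. The procedure was run on a copy of the GFP array to which known shifts and even noise had been added. That run checks the arithmetic only and does not bear on dim spots or on the spread between cultures. Motifs were counted in the 250 bases before each start. Every member and probe was named whatever its value, likewise all relatives, partners and regulators; from the cartilage matrix and hypertrophic lists fixed genes and up to 4 others with the largest differences were named, and up to 2 from the remaining lists. Some listed genes are not reported here and were left out of their lists. The members, lists and the spike-in alternative were chosen with earlier results of these data known. Mmp13, Prg4, and the muscle genes Tnni1, Acta1, Des and those at background were named beyond the rule's number because a sentence turned on them. With 1 array for each group, the spread between cultures is not known, and transgene, line and culture cannot be told apart.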

Additional observations from a re-analysis of the deposited data

How the results depend on the processing

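Of 130 values, 10 genes under 13 alternatives, 128 moved by less than 1 scanner error. The others were Clec3a with normexp background (0.63, from 1.12) and Rflnb with the mean of its probes (0.79, from 0.57). Much of this count was fixed in advance, so it is no measure of robustness. Leaving out the filter on dim probes repeated every member value, and the mean of probes could change only Rflnb. Scaling by 1 constant for each array moved every member by less than the smallest scanner error of 0.204. The count of members at least 2-fold higher was 4 and became 2 with normexp; none was 2-fold lower under any of the 13. The members' median was 0.92 with spike-in scaling. Over all genes, 173 were at least 2-fold higher and 237 lower (42.2% of them higher); with spike-in scaling 325 were higher (64.4%), with normexp 97, and with no filter on dim probes 601 were higher and 886 lower. Signal over background limits Clec3a, Cnmd, Scrg1 and Rflnb most. No paired analysis was possible because each group held 1 array, and leaving out an array would leave no comparison.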

Other observations

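Measured markers of fibroblasts, tendon and osteoblasts stayed within 2-fold, and 1 adipocyte gene did not. Over all genes 2.96% were 2-fold apart, so a count of none in lists this short does not show that they were unaffected. Of 9 fibroblast and tendon genes, all measured on both arrays, none was 2-fold apart and the median was 0.17, with Scx, a tendon factor, at 0.43 and the progenitor marker Pdgfra at -0.37. Of 7 osteoblast genes measured on both arrays none was 2-fold apart (median 0.36), with Dlx5 at 0.76 and Bglap2, an osteocalcin gene, at 0.43. Of 4 adipocyte genes measured on both, the fatty acid carrier gene Fabp4 was 3.77-fold lower with A-CEBP and the others were within 2-fold.

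Some leukocyte and endothelial markers gave a level and others did not. The leukocyte genes Ptprc and Adgre1 were not well above background on either array, and of 4 measured on both (Csf1r, Itgam, Lyz2 and Cd3e), Lyz2 was at -0.83 and Itgam at 0.23 (-0.17 as the mean of its probes). The endothelial genes Cdh5 and Tek were not well above background on either array, and of 3 measured on both (Pecam1, Kdr and Vwf), Vwf was at -0.59 and Kdr at 0.09 (-0.15 as the mean of its probes).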
